A study of Mus musculus with 8 samples.

Results

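Blood and lymphatic endothelial genes were described as a set of 10 in the intestine of recipient mice, 7 for the lining of blood vessels (Pecam1, Cdh5, Kdr, Tek, Tie1, Vwf and Plvap) and 3 for the lining of lymphatic vessels (Lyve1, Prox1 and Flt4). They were taken by symbol as known markers, with no threshold on their values, and are 10 of the 49585 gene identifiers measured. The study compared bulk RNA of whole intestine from C57BL/6 mice labelled as Klebsiella recipients (4 mice) with that from mice labelled as Lactobacillus recipients (4 mice). Each library came from a separate mouse, numbered 1 to 4 in each group, and both groups shared strain and tissue. No mice that were not recipients were analysed here. The sources used here do not give what the mice received beyond these names, its dose and timing, their age and sex, or the segment of intestine. Klebsiella is a genus of Gram-negative gut bacteria and Lactobacillus a genus of Gram-positive ones.

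Endothelial cells line every vessel. Those of blood vessels carry KDR and FLT1, receptors for the growth factor VEGFA, and the receptor pair TEK and TIE1, of which TEK binds angiopoietins. Those of lymphatic vessels depend on the transcription factor PROX1 for their identity and on FLT4, the receptor for VEGFC, and carry the hyaluronan receptor LYVE1. In the gut wall, fenestrated blood capillaries lie under the epithelium, and a lymphatic lacteal in each villus of the small intestine takes up dietary fat. Several members are not strictly endothelial: PECAM1 is also found on platelets and leukocytes, VWF in megakaryocytes, LYVE1 on some tissue macrophages, and PROX1 in some enteroendocrine cells. The blood and lymphatic labels are names for the sets, and a member of either set may also be expressed in the other endothelium. How far lymphatic endothelium adds to the blood genes, or blood endothelium to the lymphatic genes, was not tested.

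The libraries held 40455910 to 55447220 reads after filtering. The deposited values are FPKM, that is reads per kilobase of gene length and scaled to the library's counted total, and the totals behind them came to 15783925 to 21603065. Of the markers of position along the gut, Fabp1, made by small intestinal absorptive cells, was at most 0.444 FPKM in every library. Car1, of the large intestine, ran from 195 to 2947 FPKM. Hoxd13, a gene of the hindmost gut, ran from 2.20 to 46.3 FPKM, so the libraries differed widely in their position markers. Ctrb1, a pancreatic protease, was at 418 FPKM in Klebsiella replicate 2 and at 112 FPKM in Lactobacillus replicate 3, and at no more than 2.99 FPKM in the other libraries. For the blood endothelial genes, Klebsiella replicate 1 and Lactobacillus replicate 3 stood apart from the other 6 libraries, and several results that rest on them are given with and without them. The part of position and of pancreatic RNA in the results was not tested.

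RefSeq promoters (build GRCm38.p6, the 250 bases before the start) were matched by symbol for 5 of the 10 members. The 3 printed here belong to the receptors of VEGFA and of the angiopoietins, Kdr and Tek, and to the gene that sets lymphatic identity, Prox1. Capitals mark each GGAA or its reverse complement TTCC, the core letters bound by ETS factors such as ERG and FLI1, which act in endothelium. The first lies at chr5:75978456-75978705 on the minus strand, the second at chr4:94739039-94739288 on the plus strand, and the third, 1 of 2 promoters listed for its gene, at chr1:190170828-190171077 on the minus strand. The bases that follow the start were found in a GENCODE transcript for Kdr and Tek. They were not found for Tie1, Flt4 or either promoter of Prox1, so those starts rest on RefSeq alone.
Kdr: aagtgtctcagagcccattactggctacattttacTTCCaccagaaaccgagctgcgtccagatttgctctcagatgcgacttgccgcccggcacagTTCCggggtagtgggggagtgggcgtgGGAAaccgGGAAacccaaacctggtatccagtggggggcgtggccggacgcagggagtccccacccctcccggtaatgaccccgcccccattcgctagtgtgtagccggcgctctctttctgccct
Tek: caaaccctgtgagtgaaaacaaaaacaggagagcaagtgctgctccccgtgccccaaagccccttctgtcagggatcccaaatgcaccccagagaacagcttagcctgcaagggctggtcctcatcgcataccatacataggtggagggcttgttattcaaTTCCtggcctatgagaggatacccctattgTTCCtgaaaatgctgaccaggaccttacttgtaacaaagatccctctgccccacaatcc
Prox1: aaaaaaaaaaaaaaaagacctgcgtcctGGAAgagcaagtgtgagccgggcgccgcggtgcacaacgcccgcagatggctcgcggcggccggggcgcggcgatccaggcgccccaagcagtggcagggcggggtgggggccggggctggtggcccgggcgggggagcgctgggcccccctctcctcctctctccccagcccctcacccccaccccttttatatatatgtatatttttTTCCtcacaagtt
On both strands together, GGAA was found 4 times for Kdr, 2 times for Tek and 2 times for Prox1. It was present in 93.4% of the 32851 promoters of this length, with a median of 3 matches. Of the promoters not printed, that of Flt4 held 2 matches, the other one of Prox1 held 5, and that of Tie1 held 7, while 8.69% of all promoters held 6 or more. The longer form AGGAAG, which contains GGAA, was found 1 time for Tie1, in none of the other 5 promoters of the members, and in 29.5% of all promoters. The G and C content was 61.6% for Kdr, 51.2% for Tek and 64.8% for Prox1. A match is a run of letters and not a site shown to be bound.

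Per length, the mean levels over the 8 libraries spanned from Plvap to Prox1. Plvap, which forms the diaphragms of fenestrated capillaries, stood at 62.6 FPKM, and Pecam1, an adhesion molecule of endothelial junctions, at 34.2 FPKM. Lyve1 (20.6 FPKM), Vwf (17.98 FPKM) and Cdh5 (17.2 FPKM) followed, and their order was not kept in every library: Lyve1 was above Vwf in 6 of 8 and Vwf above Cdh5 in 5 of 8. Kdr (9.90 FPKM) and Tie1 (9.77 FPKM) were likewise close, with Kdr the higher in 3 of 8. Tek stood at 6.33 FPKM, Flt4 at 4.38 FPKM and Prox1 at 1.09 FPKM, and each of the remaining neighbours kept its order in 8 of 8 libraries. The lowest member was thus the lymphatic transcription factor, which rested on 56 to 127 reads per library.

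**Figure D1:**
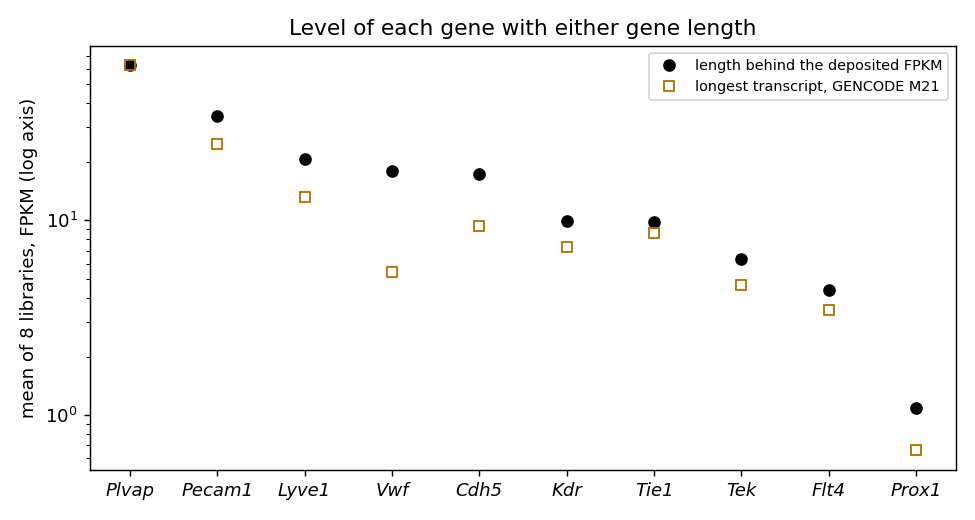
Mean FPKM of each of the 10 genes over the 8 libraries on a log axis, with the gene length the authors used and with the longest annotated transcript. Vwf moves from rank 4 to rank 7, from 17.98 to 5.42 FPKM, and Plvap stays first at 62.6 FPKM.

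That order depends in part on the gene length behind FPKM. The deposited values carry the mean length of a gene's transcripts, within 1 base, for 77.8% of 16626 genes with several transcripts. For Vwf, which has 11 annotated transcripts, this length was 2663 bases, while its longest transcript has 8834 bases. With the longest transcripts, Vwf, the platelet-binding factor of vessel walls, stood at 5.42 FPKM and seventh, and Cdh5 at 9.35 FPKM and just above Tie1. Prox1 stayed lowest at 0.660 FPKM. Comparisons of 1 gene between libraries do not use its length.

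Among the junctional and surface genes of blood endothelium, the same libraries were high each time. Pecam1 (ENSMUSG00000020717, chr11:106654217-106750628, minus strand; positions here and below are GRCm38 from GENCODE) had 51.4, 32.5, 31.4 and 27.9 FPKM in the Klebsiella libraries and 25.6, 30.6, 43.1 and 31.3 FPKM in the Lactobacillus libraries, each in the order of replicates 1 to 4. Klebsiella replicate 1 and Lactobacillus replicate 3 were highest, and the groups overlapped. Cdh5 (ENSMUSG00000031871, chr8:104101625-104144511, plus strand), the cadherin of endothelial junctions, was at 25.9, 16.1, 16.4 and 15.1 FPKM in the Klebsiella libraries and at 14.8, 14.4, 21.8 and 13.0 FPKM in the Lactobacillus libraries. Its other 6 libraries lay within 13.0 to 16.4 FPKM, and the groups overlapped.

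Plvap (ENSMUSG00000034845, chr8:71497765-71511752, minus strand) varied most of the blood genes, with 92.5, 60.2, 59.1 and 47.9 FPKM in the Klebsiella libraries and 51.6, 52.4, 97.4 and 39.6 FPKM in the Lactobacillus libraries. It is the 1 blood gene whose highest value was in Lactobacillus replicate 3, and its highest library was 2.46 times its lowest. Vwf (ENSMUSG00000001930, chr6:125546774-125686679, plus strand) was at 24.1, 14.4, 16.3 and 16.8 FPKM in the Klebsiella libraries and at 17.2, 14.7, 24.01 and 16.4 FPKM in the Lactobacillus libraries. Both of its high libraries stood at about the same level, 1 in each group, and the groups overlapped. Annotated genes on the opposite strand overlap Cdh5 (Gm29682), Plvap (Gtpbp3) and Prox1 (Prox1os and Gm28172). The sources used here do not give whether counting used strand, so reads of these partners cannot be told apart.

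The receptors of blood endothelium followed the same libraries. Kdr (ENSMUSG00000062960, chr5:75932827-75978458, minus strand), the main receptor for VEGFA, was at 14.2, 10.4, 9.28 and 9.87 FPKM in the Klebsiella libraries and at 7.27, 8.29, 12.6 and 7.38 FPKM in the Lactobacillus libraries. Apart from Lactobacillus replicate 3, every Lactobacillus library was below every Klebsiella library. Tek (ENSMUSG00000006386, chr4:94739289-94874976, plus strand), the angiopoietin receptor, was at 9.61, 6.15, 5.69 and 4.798 FPKM in the Klebsiella libraries and at 4.84, 6.27, 8.06 and 5.23 FPKM in the Lactobacillus libraries. Tie1 (ENSMUSG00000033191, chr4:118471191-118490061, minus strand), its partner without a well-established ligand of its own, was at 14.6, 9.11, 9.33 and 7.41 FPKM against 8.57, 10.03, 11.6 and 7.49 FPKM. For both TIE receptors the groups overlapped, and the lowest library was Klebsiella replicate 4. Within a library Tie1 exceeded Tek by 0.59 ± 0.057 on the log2(FPKM + 0.5) scale in the Klebsiella group and by 0.60 ± 0.13 in the Lactobacillus group (SD, n = 4 each).

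**Figure D2:**
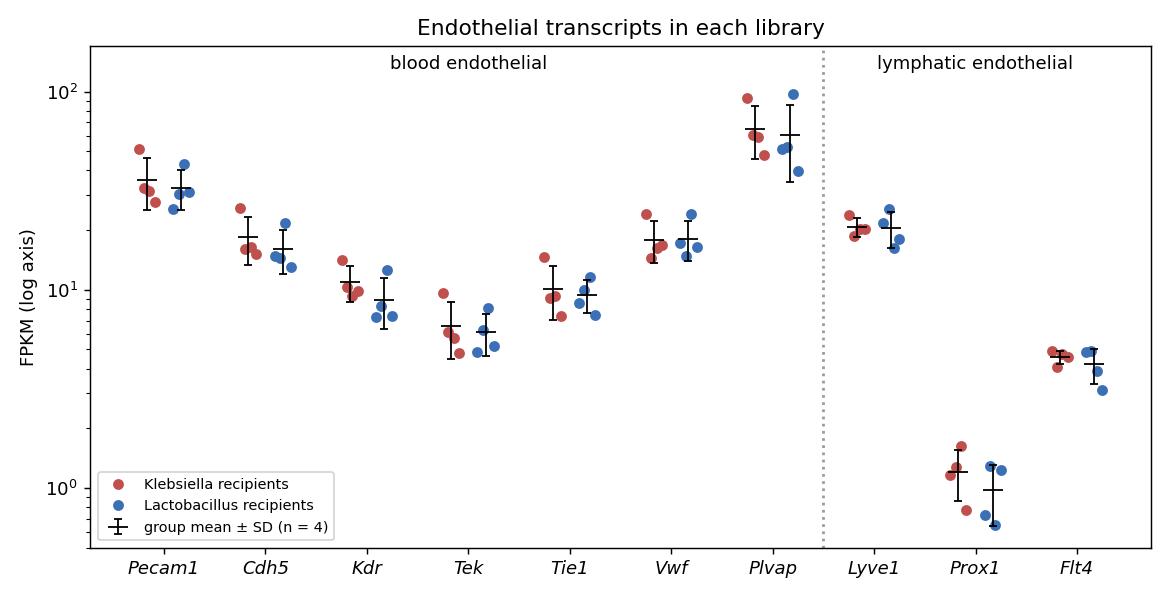
FPKM of each of the 10 genes in the 4 Klebsiella and 4 Lactobacillus libraries, 1 point per mouse, with the group mean and SD, on a log axis. For each of the 7 blood genes 1 library of each group lies above the rest, and the groups overlap for all 10 genes.

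The lymphatic genes shared Klebsiella replicate 1 in part and did not share Lactobacillus replicate 3. Lyve1 (ENSMUSG00000030787, chr7:110850607-110863239, minus strand) was at 23.9, 18.6, 20.2 and 20.2 FPKM in the Klebsiella libraries and at 21.7, 25.7, 16.2 and 18.1 FPKM in the Lactobacillus libraries. Lactobacillus replicate 2 was highest and Lactobacillus replicate 3, high for every blood gene, was lowest. Flt4 (ENSMUSG00000020357, chr11:49609263-49652739, plus strand), the VEGFC receptor, was at 4.89, 4.06, 4.72 and 4.59 FPKM in the Klebsiella libraries and at 4.83, 4.92, 3.90 and 3.14 FPKM in the Lactobacillus libraries. Its spread was the narrowest of the 10 genes, 1.57-fold from lowest to highest. Prox1 (ENSMUSG00000010175, chr1:190118035-190170714, minus strand) was at 1.17, 1.27, 1.63 and 0.771 FPKM against 0.731, 1.29, 0.649 and 1.23 FPKM. Klebsiella replicate 3 was highest and Lactobacillus replicate 3 lowest for Prox1, and the groups overlapped for all 3 lymphatic genes. Klebsiella replicate 1 was among the 2 highest libraries for 2 of the 3, Lyve1 and Flt4, and ranked 5 of 8 for Prox1. Lactobacillus replicate 3 ranked 8, 8 and 7 of 8 for Lyve1, Prox1 and Flt4.

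Over the 8 libraries, which are separate mice, the coefficient of variation of Plvap was 33.6%, against 2.11% from counting alone, and that of Flt4 was 14.4%, against 5.10%. Prox1, with the fewest reads, had 31.2% against 10.4%. In this bulk RNA, fewer endothelial cells and less RNA per endothelial cell cannot be told apart.

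Klebsiella replicate 1 and Lactobacillus replicate 3 were the 2 highest libraries for 7 of 7 blood members and for 0 of 3 lymphatic members. Among all 16865 genes tested, 525 (3.11%) had these 2 libraries on top. The same was seen for 16 of 29 further genes of blood endothelial identity: Eng, Emcn, Esam, Egfl7, Erg, Sox17, Sox18, Sox7, Robo4, Mmrn2, Flt1, Cd34, Ptprb, Adgrl4, Adgrf5 and Podxl. Of 9 further lymphatic genes tested it was seen for 0. It held for 4 of 14 arterial and venous genes, namely the arterial connexins Gja4 and Gja5, the Notch ligand Dll4, and Sema3g. Unc5b, of the same list, went the other way, with these 2 libraries lowest. It was at 9.17 FPKM in Klebsiella replicate 1 and 10.96 FPKM in Lactobacillus replicate 3 (Pearson's r with the mean of the blood members -0.86). Of 15 ligands and co-receptors of these receptors, 7 had both libraries on top. These were Vegfc, Vegfd, Nrp1, Ramp2 and Ramp3, and also Flt1 and Ptprb, which the blood endothelial list holds too. No gene of the mural cell, smooth muscle, fibroblast, macrophage, platelet, red cell, adipocyte, epithelial or pancreatic lists had both libraries on top. Each of these lists held only 3 to 7 tested genes, so 0 in a list says little beside 3.11% of all genes. These 2 libraries were noticed for the blood genes and the counts describe them, with no test.

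**Figure D3:**
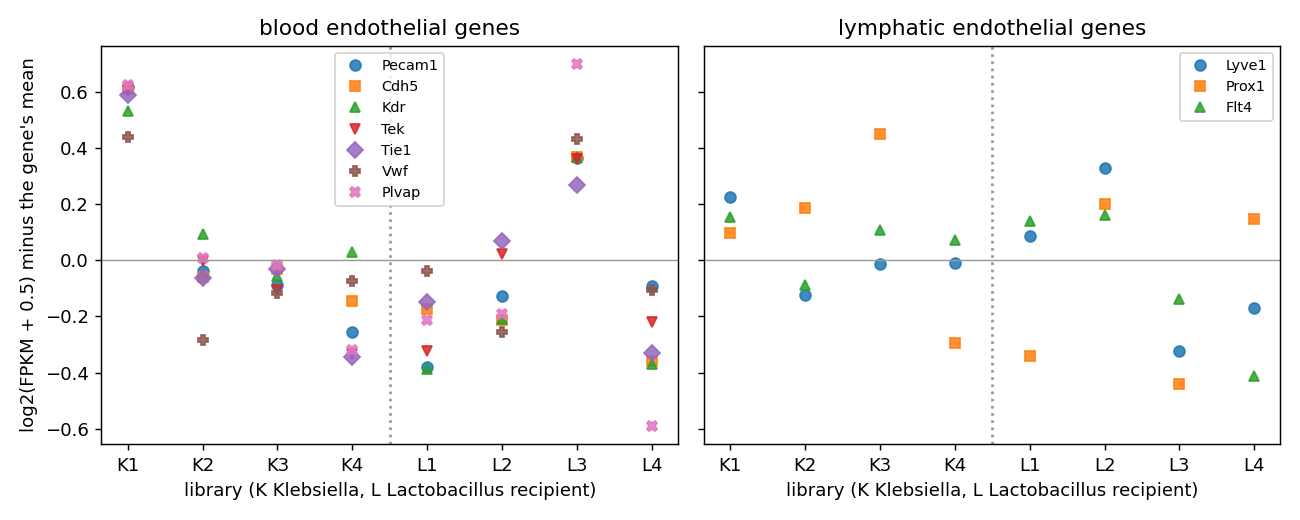
Log2(FPKM + 0.5) of each of the 10 genes minus that gene's mean over the 8 libraries, by library (K1 to K4 Klebsiella, L1 to L4 Lactobacillus replicates), with blood genes in the left panel and lymphatic genes in the right. The points of the 7 blood genes are high in Klebsiella replicate 1 and Lactobacillus replicate 3, while Lyve1 and Prox1 are lowest in Lactobacillus replicate 3.

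The pairs of members were compared with and without those 2 libraries. Over all 8, Pearson's r was positive in 21 of 21 pairs of blood genes, from 0.72 to 0.97 with a median of 0.88. Over the other 6 it was positive in all 15 pairs that leave out Vwf, from 0.10 to 0.93 with a median of 0.47, and negative in all 6 pairs with Vwf, from -0.93 to -0.21. The values over 6 libraries are descriptions, since an exact p there cannot go below 0.00139, which for a single pair among 45 gives an adjusted p of 0.0625. Tek and Tie1 had r = 0.96 over 8 libraries, and r = 0.80 and rho = 0.89 over 6. Kdr and Tek had r = 0.85 over 8 libraries, and r = 0.34 and rho = 0.20 over 6. Cdh5 and Plvap had r = 0.96 over 8 libraries, and r = 0.93 and rho = 0.71 over 6. Lyve1 and Flt4 had r = 0.75 over 8 libraries, and r = 0.74 and rho = 0.94 over 6. Prox1 did not follow them: Lyve1 and Prox1 had r = 0.32 over 8 libraries and -0.075 over 6. Prox1 and Flt4 had r = 0.024 over 8 libraries and -0.19 over 6, so the 3 lymphatic genes did not all move together. The libraries share their depth scaling between genes, which bears on every pair.

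As a mean of log2(FPKM + 0.5), the 7 blood genes stood at 4.67, 4.05, 4.04 and 3.89 in the Klebsiella libraries and at 3.86, 3.97, 4.51 and 3.81 in the Lactobacillus libraries. The 3 lymphatic genes stood at 2.59, 2.43, 2.61 and 2.36 against 2.40, 2.66, 2.13 and 2.29. Over 8 libraries the means of the blood and lymphatic genes had r = -0.013 and rho = 0.21. Without Klebsiella replicate 1 and Lactobacillus replicate 3 (n = 6) they had r = 0.68 and rho = 0.71. Without Lactobacillus replicate 3 alone r was 0.53, and without Klebsiella replicate 1 alone it was -0.42, so these libraries moved it in opposite directions. The correlations are descriptions, and the 6 libraries were chosen after these values were seen.

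**Figure D4:**
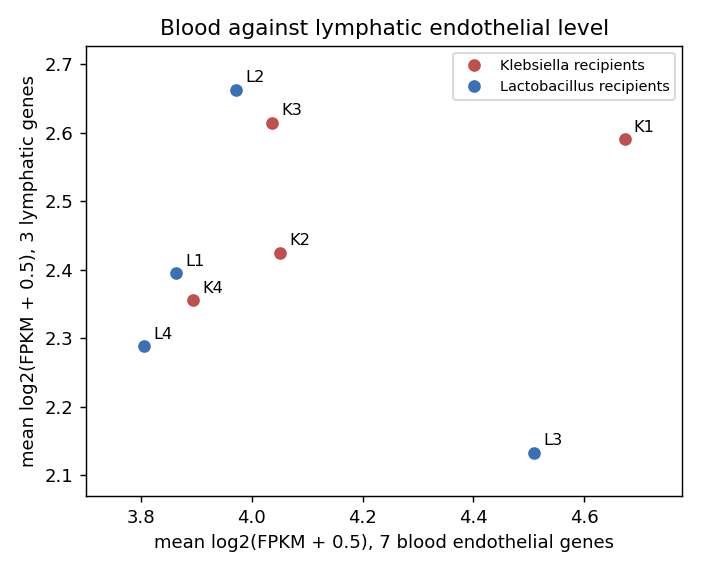
Mean log2(FPKM + 0.5) of the 3 lymphatic genes against that of the 7 blood genes, 1 point per library, labelled K or L for the recipient group with the replicate number. Klebsiella replicate 1 (4.67, 2.59) and Lactobacillus replicate 3 (4.51, 2.13) lie to the right of the other 6 libraries.

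The balance of blood over lymphatic genes, the difference of these means within a library, was 1.67 ± 0.29 in the Klebsiella group and 1.67 ± 0.48 in the Lactobacillus group (SD, n = 4 each). It was highest in Lactobacillus replicate 3, at 2.38, and lowest in Lactobacillus replicate 2, at 1.31, so the whole range lay within 1 group. Kdr exceeded Flt4 by 1.16 ± 0.24 log2 units in the Klebsiella group and by 0.98 ± 0.46 in the Lactobacillus group. Pecam1 exceeded Lyve1 by 0.74 ± 0.27 and 0.66 ± 0.55, and Cdh5 exceeded Prox1 by 3.46 ± 0.44 and 3.49 ± 0.61. The groups overlapped in each of these differences. All of them compare genes, and the amounts of blood and lymphatic endothelium were not measured.

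Between Klebsiella and Lactobacillus recipients, 0 of the 10 members passed an adjusted p of 0.05 in limma, beside 0% of the 16865 genes tested. At an unadjusted p of 0.05, 0 members and 6.07% of all genes passed, which is 1024 genes, and limma's voom on the recovered reads gave 1046 genes with 0 past adjustment. Groups did not overlap for 0 members and for 2.99% of all genes. The log2 difference was positive, that is higher in Klebsiella recipients, for 9 of 10 members with a median of 0.12, against 46.4% of all genes with a median of -0.017. Most of these differences are small beside the spread between mice. Members that move together over the libraries share that spread and do not count as separate evidence.

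The log2 difference of Kdr was 0.30 (SE 0.20, 95% interval -0.15 to 0.75, limma adjusted p = 0.781). Its means were 10.9 ± 2.22 FPKM in Klebsiella recipients and 8.88 ± 2.52 FPKM in Lactobacillus recipients (SD, n = 4 each). Without Lactobacillus replicate 3 its difference was 0.47 and its unadjusted limma p was 0.0204 (adjusted p = 0.927). In that setting 572 genes had an unadjusted p under 0.05. Without that library and Klebsiella replicate 1 the difference was 0.34, with an unadjusted limma p of 0.0332 and an adjusted p of 0.995, beside 478 genes under 0.05. These 2 libraries, the highest for Kdr, were left out together after the values were seen, so this p is no independent test. Kdr was the 1 member to pass an unadjusted p of 0.05 in any setting, and it passed none after adjustment. Prox1 had a difference of 0.22 (95% interval -0.31 to 0.74, adjusted p = 0.845), from 1.21 ± 0.353 and 0.9746 ± 0.331 FPKM. Kdr had the largest difference of the members in this fit and in 16 of the 21 alternatives, and Prox1 in the other 5. Cdh5 had 0.19 (95% interval -0.28 to 0.65, adjusted p = 0.853), from 18.4 ± 5.01 and 16.03 ± 3.95 FPKM.

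For the other 7 members too the interval spanned 0. Plvap had a log2 difference of 0.15 with the widest interval, -0.50 to 0.79. Pecam1, Flt4, Tek, Tie1 and Lyve1 had 0.12, 0.12, 0.079, 0.073 and 0.038, and Vwf had -0.016. The limma adjusted p of these 7 lay between 0.872 and 0.992. Lyve1 had the narrowest interval of the 7, -0.30 to 0.38. Without Klebsiella replicate 1 the differences of Pecam1, Tek, Tie1, Plvap and Lyve1 turned negative, to between -0.11 and -0.030. Tek also turned negative without Lactobacillus replicate 1, Tie1, Plvap and Lyve1 without Lactobacillus replicate 4, and Lyve1 without Lactobacillus replicate 3.

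**Figure D5:**
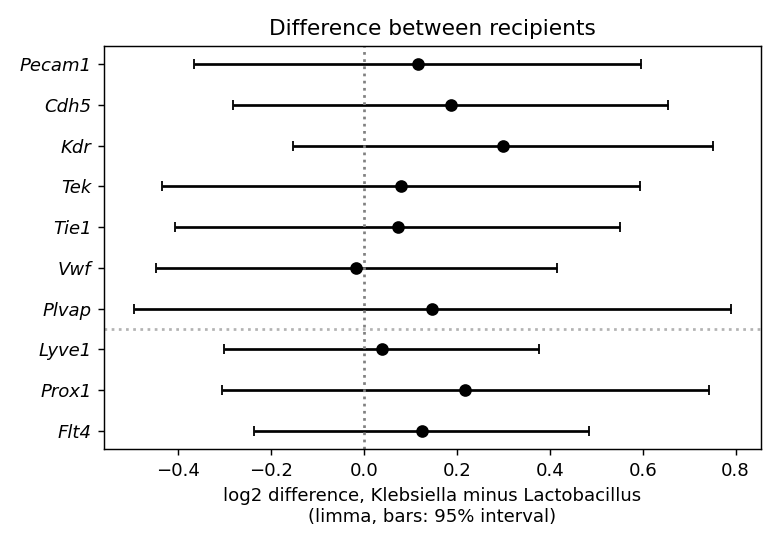
Log2 difference, Klebsiella minus Lactobacillus recipients, of each of the 10 genes with its 95% limma interval on the log2(FPKM + 0.5) scale. The interval of every gene spans 0, and Kdr lies at 0.30.

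Of the ligands and co-receptors of these receptors, 0 of 15 tested passed limma's adjusted threshold, while 9 were higher in Klebsiella recipients and 6 lower, with a median log2 difference of 0.060. Vegfa, the ligand of KDR, was at 73.7 ± 18.2 FPKM in Klebsiella recipients and at 65.2 ± 14.98 FPKM in Lactobacillus recipients. Vegfc, the ligand of FLT4, was at 8.15 ± 2.04 and 8.09 ± 1.20 FPKM. It had the same 2 highest libraries as the blood genes, 11.2 FPKM in Klebsiella replicate 1 and 9.79 FPKM in Lactobacillus replicate 3. The angiopoietins, ligands of TEK, were low: Angpt1 was at 0.765 ± 0.258 and 0.821 ± 0.0997 FPKM, and Angpt2 at 2.58 ± 0.231 and 2.98 ± 0.655 FPKM. Flt1, the other VEGFA receptor, was at 20.8 ± 5.28 and 16.7 ± 5.58 FPKM (log2 difference 0.33, limma adjusted p = 0.785). Nrp2, a co-receptor of FLT4, was at 30.6 ± 10.5 and 23.1 ± 0.779 FPKM, and its Klebsiella values ran from 18.9 to 41.7 FPKM. Pgf, Angpt4 and Adamts3 were below the minimum mean of 0.5 FPKM and were not tested.

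Of the further blood endothelial genes, 23 of 29 were higher in Klebsiella recipients and 6 lower (median log2 difference 0.16), beside 46.4% of all genes, and 0 passed the adjusted threshold. Klebsiella replicate 1 held the highest value of 22 of these 29 genes. The count was not repeated without that library, so how far it rests on this 1 mouse was not tested. Ecscr, an endothelial surface protein, was the 1 gene of the 29 with an unadjusted p under 0.05, at 16.8 ± 3.13 against 12.4 ± 1.095 FPKM (log2 difference 0.41, SE 0.14, limma adjusted p = 0.774). Esm1, a gene of endothelial tip cells, was at 4.04 ± 1.71 against 2.18 ± 0.966 FPKM (log2 difference 0.78, limma adjusted p = 0.774). Esam and Podxl, the most abundant, differed by 0.0042 and 0.19 log2 units. Of 9 further lymphatic genes tested, 5 were higher and 4 lower (median 0.051), with 0 past the threshold. Ccl21a, the chemokine of lymphatic endothelium, was highest in Lactobacillus replicate 2 (86.4 FPKM) and lowest in Lactobacillus replicate 3 (45.01 FPKM), the same extremes as Lyve1. Pdpn, a surface protein of lymphatic endothelium, was at 13.5 ± 1.34 and 13.0 ± 1.66 FPKM. Among arterial and venous genes 8 of 14 were higher in Klebsiella recipients, and the arterial ligand Efnb2 (66.4 ± 14.8 and 49.5 ± 24.3 FPKM) and its venous receptor Ephb4 (31.4 ± 6.01 and 33.9 ± 4.57 FPKM) both overlapped between groups. Pearson's r with the mean of the blood members was -0.16 for Efnb2 and 0.57 for Ephb4. Which cells these 2 transcripts came from was not tested.

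Markers of other cells did not all follow the blood endothelial libraries. The summed level of 5 red cell genes ran from 53.1 to 115 FPKM in Klebsiella libraries and from 77.5 to 170 FPKM in Lactobacillus libraries, highest in Lactobacillus replicate 3, while Klebsiella replicate 1 had 102 FPKM. The platelet list, of interest beside Vwf and Pecam1, ran from 21.7 to 41.9 and from 22.9 to 41.2 FPKM and was highest in Klebsiella replicate 1 and then in Lactobacillus replicate 2. The macrophage list, of interest beside Lyve1, ran from 124 to 155 and from 127 to 208 FPKM and was highest in Lactobacillus replicate 2, the library with the highest Lyve1. Mrc1, a macrophage receptor often found with LYVE1, was highest in Klebsiella replicate 1 at 9.80 FPKM, with 9.34 FPKM in Lactobacillus replicate 2. The mural list, for the pericytes that wrap vessels, was higher in Klebsiella recipients for 7 of 7 genes (median log2 difference 0.28, 0 past the threshold). The same held for 6 of 6 smooth muscle genes (median 0.27, 0 past the threshold), so this was not particular to mural cells. The sums of both lists were highest in Klebsiella replicate 3 and lowest in Klebsiella replicate 4. The 4 adipocyte genes summed to 1.83 to 19.1 FPKM in the Klebsiella libraries and to 24.3 to 232 FPKM in the Lactobacillus libraries. The sum was lowest in Klebsiella replicate 1 and highest in Lactobacillus replicate 4. Groups did not overlap for 3 of the 4, beside 2.99% of all genes. All 4 had an unadjusted limma p under 0.05, beside 6.07% of all genes, and 0 passed the adjusted threshold (smallest limma adjusted p = 0.774). No gene of these lists was at 0 in every library. The part of these cell types in the endothelial values was not tested.

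By Pearson's r over the 8 libraries among 14347 genes, the non-member genes nearest to the blood mean were Ptprb (0.980), Sox17 (0.980), Adgrf5 (0.979), Podxl (0.972) and Hspa12b (0.964). Ptprb encodes a phosphatase of endothelial junctions that acts on TEK, and Sox17 an arterial transcription factor. Nearest to the lymphatic mean were Ptprt (0.985), Degs1 (0.946), Tmem167 (0.939), Atp6v1b2 (0.939) and Traf5 (0.928), none of which was on the lymphatic list. Without Klebsiella replicate 1 and Lactobacillus replicate 3 (n = 6), r with the blood mean was 0.899 for Ptprb, 0.697 for Sox17, 0.832 for Adgrf5, 0.952 for Podxl and 0.740 for Hspa12b. That with the lymphatic mean was between 0.851 (Traf5) and 0.972 (Ptprt). These values order the genes and carry no test.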

How the data were processed

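RNA of whole intestine from 8 mice was sequenced. The authors deposited FPKM values for 49585 gene identifiers, and read totals as counts per library. Per the submitters' processing notes, DESeq2 1.10.1, HTSeq 0.6.0, STAR 2.5.1b and CASAVA were used, in roles not stated there. The sources used here do not give a genome build or annotation. Symbols and positions came from GENCODE M21 for 49326 identifiers.

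FPKM is not a count, and the main test is no count model. Genes with a mean of at least 0.5 FPKM (16865) were analysed as log2(FPKM + 0.5), a scale that understates the change of low genes. Klebsiella minus Lactobacillus was fitted with limma 3.58.1 in R 4.3.3 (mean-variance trend, two-sided, Benjamini-Hochberg over all genes, threshold 0.05, 4 against 4 mice). All 10 members passed the filter. The deposited FPKM resolved into whole reads in 26963 of the 26963 genes that 2 or more libraries detected (relative tolerance 1e-12). These reads gave the counting errors and the limma voom alternative; the sources used here do not say whether they are single reads or pairs. Counting errors cover counting only. Python 3.11.15, pandas 2.3.3, scipy 1.17.1 and matplotlib 3.10.9 did the rest, and the fit was tested on simulated data.

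The members, the gene lists and the tests were chosen with earlier results of these data known. Genes named beside the members were drawn from a pool. In each list it held the 2 with the highest mean FPKM and the 2 with the smallest p (1 of each in lists of under 8 genes). It also held a few ligands and markers set by name, and the 5 nearest to the blood and to the lymphatic mean. Not every gene of this pool is named: Nr2f2, Bmx, Rgs5 and Mcam are among those left out, and that choice was made with the values known. Fabp1, Unc5b and the genes named for sharing the 2 highest libraries were picked once values were known. The alternatives were other pseudocounts, filters, scalings, fits and left-out libraries.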

Additional observations from a re-analysis of the deposited data

Results flagged for a closer look

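Of 34 groups of 4 libraries examined, 1 held a library far from its neighbours: Cdh5 in Klebsiella replicate 1 stood at 4.72 on the log2(FPKM + 0.5) scale, while the other 3 Klebsiella libraries lay between 3.97 and 4.08. Its gap to the nearest of them took a share of 0.846 of the group's range, above Dixon's 95% critical value for 4 samples. Chance alone marks about 1 in 20 such groups.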

How the results depend on the processing

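Under all 21 alternatives 0 genes and 0 members passed the adjusted threshold, and between 431 and 2009 genes had an unadjusted limma p under 0.05, against 1024. Kdr, Cdh5, Prox1 and Flt4 kept a positive difference in every alternative (0.17 to 0.49, 0.015 to 0.39, 0.081 to 0.35 and 0.0075 to 0.20). Cdh5 was lowest without Klebsiella replicate 1 and Flt4 without Lactobacillus replicate 4, both then near 0. Scaling every library to the same FPKM sum turned Vwf to 0.011 and scaling by median-of-ratios factors turned it to 0.0087, while the median of all genes moved from -0.017 to 0.0080 and 0.0061. Array weights turned Lyve1 to -0.049. Leaving out each library in turn gave ranges of -0.070 to 0.26 for Pecam1, -0.11 to 0.21 for Tek, -0.11 to 0.20 for Tie1, -0.17 to 0.13 for Vwf, -0.036 to 0.40 for Plvap and -0.063 to 0.15 for Lyve1. Leaving out Klebsiella replicate 1 and Lactobacillus replicate 3 together, chosen after seeing the data, turned Tie1 to -0.0093 and Lyve1 to -0.13. Without Klebsiella replicate 2 and Lactobacillus replicate 3, the pair with the highest Ctrb1, Vwf was 0.22, Lyve1 was -0.016 and Kdr was 0.49. The correlation of the blood and lymphatic means was 0.54 without that pair, -0.42 without Klebsiella replicate 1, 0.53 without Lactobacillus replicate 3 and 0.68 without both of these. The balance of blood over lymphatic genes differed between groups by -0.14 to 0.25 log2 units, within the spread between mice. The causes of these shifts were not tested.

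The replicate block gave 0 called genes and 1027 at an unadjusted p under 0.05. Same-numbered libraries had correlations of 0.19, -0.10, -0.059 and -0.16 in their deviations from the group means, and only number 1 correlated best within itself, so the numbers were not taken as pairs. With 4 mice a group, the 95% intervals of the members allow differences of up to 0.38 (Lyve1) to 0.79 (Plvap) log2 units, and Prox1, at 56 to 127 reads, is also limited by depth.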
